A study of Drosophila melanogaster with 4 samples.

Results

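The 6 genes described here encode the larval serum proteins and 2 fat body proteins of Drosophila melanogaster: Lsp1alpha, Lsp1beta, Lsp1gamma, Lsp2, Fbp1 and Fbp2. They are 6 of the 17677 nuclear genes with a transcript entry in the counts, of which 13069 had at least 1 read. They were selected on their measured fall in DmAngel KO larvae, so the size of that fall is given below as a description, without p-values. The question taken up is how far the fall differed from one gene to the next.

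The tested larvae were homozygous for a CRISPR-made knock-out of angel (DmAngel KO, labelled Angel-/-), and the controls were white Dahomey larvae (wDah, labelled Angel+/+), 2 libraries of each. All larvae were collected 4 days after egg laying, and the knock-out line had been backcrossed to wDah. The study made 2 knock-out lines, and its legend for these profiles names only KO-1. The whole contrast thus rests on 1 knock-out line. Crude mitochondria were lysed, digested with RNase T1 and run on a sucrose gradient, and short RNA fragments from the monosome fractions were sequenced. Angel encodes a mitochondrial RNA phosphatase, and without it flies die as pupae, after the stage sampled here.

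Because the starting material was a mitochondrial preparation, reads on nuclear transcripts come from cytosolic RNA that travelled with the mitochondria, and a read here is not a measure of protein made in the fat body. In a preparation from whole animals, fewer cells of a type and less RNA per cell cannot be told apart.

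Larval serum proteins are hexamerins, large storage proteins of the hemocyanin superfamily that the fat body secretes into the hemolymph late in larval life. LSP1 is assembled from alpha, beta and gamma subunits encoded on different chromosomes, and LSP2 forms a hexamer of its own. Before metamorphosis the fat body takes the hexamerins back up and keeps them in protein granules, which supply amino acids to the developing adult. Fbp1 encodes a fat body surface protein that acts as a hexamerin receptor in this uptake and is a known target of the moulting hormone ecdysone. Fbp2 encodes a fat body protein related to alcohol dehydrogenase.

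In the BDGP6.54 annotation, Lsp1alpha (FBgn0002562) lies on chromosome X from 12490291 to 12492982 on the plus strand. Lsp1beta (FBgn0002563) lies on 2L from 898500 to 901316 and Lsp1gamma (FBgn0002564) on 3L from 66430 to 68995, both on the plus strand. Lsp2 (FBgn0002565) lies on 3L from 12129393 to 12131869 on the plus strand and Fbp1 (FBgn0000639) on 3L from 14094589 to 14098053 on the minus strand. Fbp2 (FBgn0000640) lies on 2L from 9426784 to 9427917 on the plus strand. The annotated coding sequences give 816, 789 and 772 residues for Lsp1alpha, Lsp1beta and Lsp1gamma, 701 for Lsp2, 997 to 1029 for the isoforms of Fbp1 and 256 for Fbp2.

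Replicates 1 and 2 had 8175475 and 8227127 reads for DmAngel KO, against 4159707 and 1789947 reads for control. Reads on mtDNA took 93.1% and 93.7% of the DmAngel KO libraries, against 68.1% and 74.5% of the controls. That left 566679 and 518033 nuclear reads in DmAngel KO and 1324943 and 457054 in control, on which the levels below, in reads per 1000000 nuclear reads (RPM), are based. The share of mtDNA reads moved with the genotype in all 4 libraries, and its part in the results was not tested. A count of 3 reads, the limit that a count of 0 allows, corresponded to 5.29 and 5.79 RPM in DmAngel KO and to 2.26 and 6.56 RPM in control. The targeted gene angel had 1 and 1 reads in DmAngel KO and 2 and 0 in control, too few to check the labels.

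Together the 6 genes took 3.70% (95% Wilson interval 3.65 to 3.75) and 2.33% (2.29 to 2.38) of the nuclear reads in the DmAngel KO libraries, against 31.2% (31.1 to 31.3) and 16.5% (16.4 to 16.7) in the control libraries. The study's methods describe no molecular identifiers, and these intervals reflect the counting of reads and no other error. Nearly all of these reads fell on the LSP1 subunits, with 3.70% and 2.33% in DmAngel KO and 30.6% and 16.1% in control. Lsp2, Fbp1 and Fbp2 together made up 0.00176% and 0.000772% in DmAngel KO, against 0.568% and 0.426% in control. Every one of the 6 genes was lower in both DmAngel KO libraries than in either control library. In edgeR's fit over 2994 genes, 6 of 6 had an adjusted p under 0.05 in the lower direction, where 7.01% of all genes tested did, and 4.18% did in the higher direction. This contrast chose the genes, so nothing is read from that count. The LSP1 subunit genes passed the filter on low counts, about 18.4 RPM in 2 libraries, in both genotypes, and Lsp2, Fbp1 and Fbp2 through the control libraries alone.

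**Figure D1:**
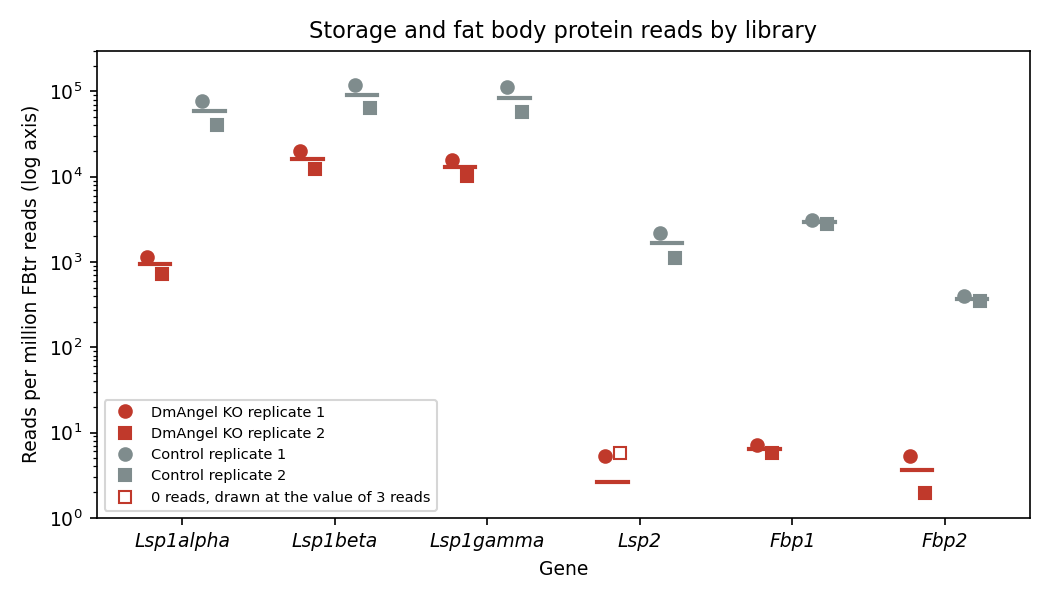
RPM (log axis) of the 6 genes, DmAngel KO in red to the left of control in grey, circles for replicate 1 and squares for replicate 2, with bars at the group means. The open square is a library with 0 reads drawn at the value of 3 reads; Lsp1beta and Lsp1gamma stay at 10316 RPM or more in DmAngel KO, while Lsp2, Fbp1 and Fbp2 lie at 7.06 RPM or less.

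Lsp1beta, the LSP1 subunit with most reads, had 11291 and 6365 reads in DmAngel KO and 156828 and 28915 in control. These were 19925 and 12287 RPM in DmAngel KO, against 118366 and 63264 RPM in control. The groups did not overlap, yet the gene still ranked 5 and 8 among all nuclear genes of the DmAngel KO libraries, against 1 and 3 in the controls. The mean level was 16106 ± 5401 RPM in DmAngel KO and 90815 ± 38963 RPM in control (SD, n = 2 each), so that the knock-out kept 17.7% of the control level. On edgeR's scale the difference was a log2 fold change of -3.20 (SE 0.65). That scale multiplies library sizes by TMM factors, which were 1.34 and 1.20 in DmAngel KO and 0.78 and 0.80 in control. Its log2 fold changes therefore lie below those of the RPM values, and without the factors that of Lsp1beta was -2.50. Log2 fold changes below are on edgeR's scale with TMM factors unless another is named.

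Lsp1gamma followed Lsp1beta closely. Its reads numbered 8994 and 5344 in DmAngel KO and 148026 and 26369 in control, or 15871 and 10316 RPM in DmAngel KO against 111723 and 57693 RPM in control. Again both DmAngel KO libraries were below both controls, and the gene ranked 7 and 11 in DmAngel KO and 2 and 5 in control. It averaged 13094 ± 3928 RPM in DmAngel KO and 84708 ± 38204 RPM in control (SD, n = 2 each), 15.5% of the control level. The log2 fold change was -3.39 (SE 0.65) with TMM factors and -2.69 without them.

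Lsp1alpha, the third subunit, dropped much further. It had 656 and 377 reads in DmAngel KO and 101218 and 18403 in control. Its level was 1158 and 728 RPM in DmAngel KO, against 76394 and 40264 RPM in control, and it ranked 93 and 119 in DmAngel KO and 3 and 7 in control. In control larvae its reads were thus of the order of those of the other subunits, whereas in DmAngel KO larvae it stood well below them in both libraries. The means were 943 ± 304 RPM in DmAngel KO and 58329 ± 25548 RPM in control (SD, n = 2 each), which leaves 1.62% of the control level. The log2 fold change was -6.65 (SE 0.72) with TMM factors and -5.95 without them.

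Lsp2, the hexamerin that assembles without the LSP1 subunits, was at the edge of detection in the knock-out. It had 3 and 0 reads in DmAngel KO and 2899 and 511 in control, that is 5.29 and 0 RPM in DmAngel KO against 2188 and 1118 RPM in control. Both DmAngel KO values were at or under the level of 3 reads, while the controls ranked the gene 44 and 85. Pooled over libraries the DmAngel KO level was 0.145% of control (95% exact counting interval 0.0298 to 0.423). The fitted log2 fold change was -9.82 (SE 0.76) and depends on the small count edgeR adds before taking logs.

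Fbp1, the hexamerin receptor, had 4 and 3 reads in DmAngel KO and 4105 and 1277 in control. In RPM this was 7.06 and 5.79 in DmAngel KO, against 3098 and 2794 in control, where the gene ranked 28 and 37. The 2 controls were close to each other and far above both knock-out libraries. The DmAngel KO level was 0.214% of control by pooled counts (95% exact counting interval 0.0859 to 0.441), and the log2 fold change was -9.47 (SE 0.57).

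Fbp2 was the least abundant of the 6 in control. It had 3 and 1 reads in DmAngel KO and 524 and 160 in control, or 5.29 and 1.93 RPM in DmAngel KO against 395 and 350.1 RPM in control. As for Fbp1, the controls lay close together and the knock-out libraries near the level of 3 reads. The pooled DmAngel KO level was 0.961% of control (95% exact counting interval 0.261 to 2.47), with a log2 fold change of -7.27 (SE 0.53).

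Set side by side, the falls spanned a wide range, with DmAngel KO means between 0.160% of control for Lsp2 and 17.7% for Lsp1beta. Lsp2 and Fbp1 had the lowest and the next lowest log2 fold change of the 2994 genes tested, an order that turned round without DmAngel KO replicate 2 (-9.06 for Lsp2 and -9.50 for Fbp1), without control replicate 1 (-9.31 and -9.48) and with single entries (-8.69 and -9.44). Fbp2 ranked 7 from the lowest, Lsp1alpha 9, Lsp1gamma 40 and Lsp1beta 47. The order was not resolved throughout. The counting intervals of Lsp2 and Fbp1 overlapped, that of Fbp2 reached into both of them, and it also contained the whole interval of Lsp1alpha, 1.33% to 1.51% of control around a pooled 1.42%. The intervals of Lsp1beta (15.4% to 15.9%) and Lsp1gamma (13.3% to 13.7%) lay apart from those of the other 4 genes. All these intervals hold only the counting error of pooled reads and leave out the spread between libraries. Those of Lsp1beta, Lsp1gamma and Lsp1alpha exclude the ratios of the group means, 17.7%, 15.5% and 1.62% of control. The median log2 fold change was -6.96 over the 6 genes and 0.01 over all genes tested.

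**Figure D2:**
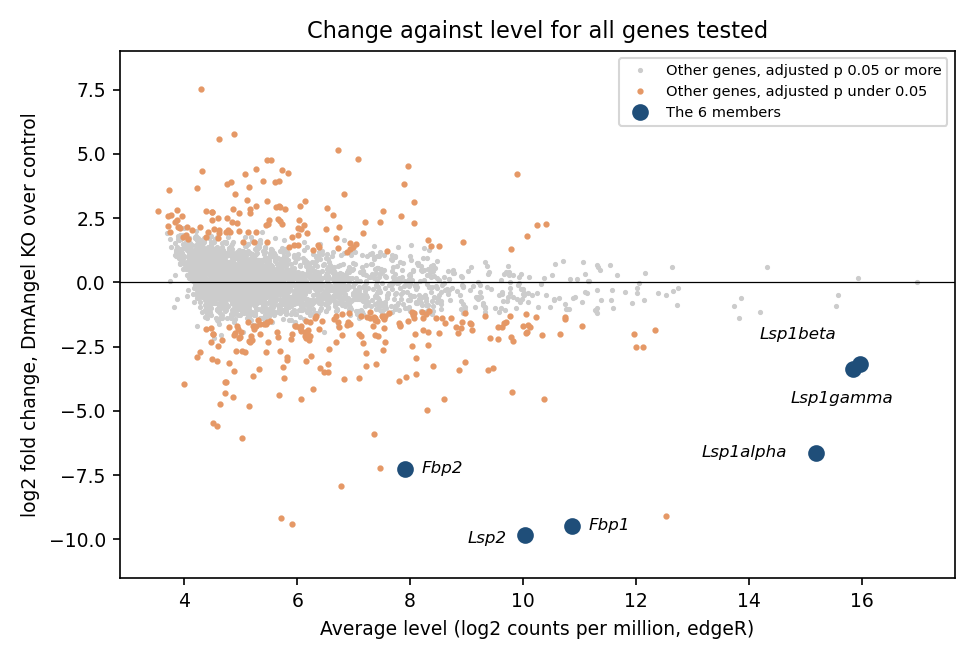
Log2 fold change, DmAngel KO over control, against average level (log2 CPM from edgeR) for the 2994 genes tested, with the 6 genes as large blue points, other genes under an adjusted p of 0.05 in orange and the rest in grey. Lsp1beta and Lsp1gamma sit at the highest levels with log2 fold changes of -3.20 and -3.39, and Lsp2 and Fbp1 lie at the bottom at -9.82 and -9.47.

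Leaving out each library in turn moved the log2 fold change of Lsp1beta between -3.70 and -2.77, that of Lsp1gamma between -3.91 and -2.93 and that of Lsp1alpha between -7.16 and -6.21. For Fbp1 the range was -9.68 to -9.48 and for Fbp2 -8.17 to -6.91. Lsp2 ranged most widely, between -9.06 without DmAngel KO replicate 2 and -13.5 without DmAngel KO replicate 1, where the remaining DmAngel KO library had no read and the fitted value is no measure of size. With 1 DmAngel KO library in the fit 4 of 6 genes were under an adjusted p of 0.05, without Lsp1beta and Lsp1gamma, whose log2 fold changes were -3.63 and -3.78 without DmAngel KO replicate 1 and -3.02 and -3.25 without DmAngel KO replicate 2. The direction of all 6 held under every scaling tried, although scaling moved the calls over all genes: 37.3% of the calls were higher in DmAngel KO with TMM factors, 86.4% without them and 1.12% with the library size taken from all reads including mtDNA. The median log2 fold change of all genes was 0.70 without TMM factors and -1.50 with all reads, and that of the 6 genes -6.28 and -8.38.

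The composition of LSP1 can be read inside each library, with no scaling between libraries. Lsp1alpha made up 3.13% (95% Wilson interval 2.91 to 3.38) and 3.12% (2.82 to 3.44) of the reads on the 3 LSP1 subunit genes in DmAngel KO, against 24.9% (24.8 to 25.1) and 25.0% (24.7 to 25.3) in control. Lsp1beta made up 53.9% and 52.7% in DmAngel KO and 38.6% and 39.2% in control. Lsp1gamma made up 42.9% and 44.2% in DmAngel KO and 36.5% and 35.8% in control. The mean share of Lsp1alpha was thus 3.13% ± 0.00940 in DmAngel KO and 25.0% ± 0.0342 in control (SD, n = 2 each), and for this subunit the replicates of a genotype differed by less than their counting error. Shares per length of transcript were near these, at 3.09% for Lsp1alpha in DmAngel KO and 24.7% in control.

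**Figure D3:**
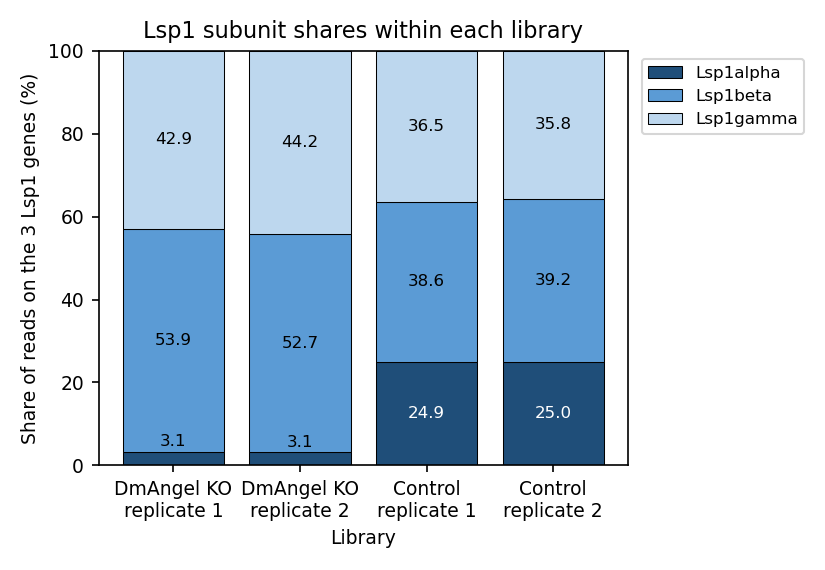
Share of the reads on Lsp1alpha, Lsp1beta and Lsp1gamma in each library, in percent of their sum, with the DmAngel KO libraries to the left of the controls. The dark Lsp1alpha segment is 3.1% in both DmAngel KO libraries and 24.9% and 25.0% in the controls.

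Put as ratios, there were 58.1 and 59.2 reads of Lsp1alpha per 1000 reads of Lsp1beta in DmAngel KO and 645 and 636 in control. For Lsp1gamma the figures were 797 and 840 per 1000 in DmAngel KO and 944 and 912 in control. The knock-out libraries were lower in both ratios with no overlap, by much more for Lsp1alpha than for Lsp1gamma. Lsp2 gave 0.266 and 0 reads per 1000 of Lsp1beta in DmAngel KO, against 18.5 and 17.7 in control. Fbp1 gave 0.354 and 0.471 per 1000 of Lsp1beta in DmAngel KO and 26.2 and 44.2 in control. The LSP1 genes are related in sequence, and how reads matching several entries were placed is not given in the sources used here, so some reads of one subunit could belong to another.

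The control replicates also separated the hexamerins from the fat body proteins. The RPM of replicate 1 was 1.90 times that of replicate 2 for Lsp1alpha, 1.87 times for Lsp1beta, 1.94 times for Lsp1gamma and 1.96 times for Lsp2. It was 1.11 times for Fbp1 and 1.13 times for Fbp2. In DmAngel KO the same ratio was 1.59, 1.62 and 1.54 for Lsp1alpha, Lsp1beta and Lsp1gamma, and the counts of the other genes were too low to read one. Thus the LSP1 subunits and LSP2 varied by nearly the same factor between the 2 control samples, and Fbp1 and Fbp2 kept a ratio of 128 and 125 reads of Fbp2 per 1000 of Fbp1.

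Expressed per length, so that genes can be set against each other, the control levels in RPM per kilobase of transcript were 33926 ± 14556 for Lsp1beta and 33870 ± 15276 for Lsp1gamma (SD, n = 2 each). Lsp1alpha followed with 22221 ± 9732. The SDs of these 3 overlapped, but within each control library Lsp1alpha was the lowest. It had 29103 in replicate 1, against 44218 for Lsp1beta and 44671 for Lsp1gamma, and 15339 in replicate 2, against 23634 and 23068. Fbp1 had 861 ± 62.9, Lsp2 692 ± 317 and Fbp2 390 ± 33.6 in control, where Lsp2 did not separate from Fbp1. Lsp2 was above Fbp2 within each control library, at 916 and 468 against 414 and 366. In DmAngel KO the levels on the same scale were 6017 ± 2018 for Lsp1beta, 5235 ± 1571 for Lsp1gamma and 359 ± 116 for Lsp1alpha. Lsp2, Fbp1 and Fbp2 had 1.11 ± 1.57, 1.88 ± 0.262 and 3.78 ± 2.49 in DmAngel KO and cannot be ordered.

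The reads of genes with several annotated transcripts were split nearly evenly among their entries in control. The 2 entries of Lsp1beta took 50.1% and 49.9% of its pooled control reads, and those of Lsp2 51.8% and 48.2%. The 3 entries of Fbp1 each took 32.9% to 33.8%, and those of Fbp2 31.6% to 35.1%. The placement of reads shared by isoforms is not known, and isoforms are therefore not compared.

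The fat body markers besides the 6 genes were apolpp, Adh, FASN1 and Lsd-1, which also belong to the wider lists of fat body genes that follow. Apolpp, the precursor of the main hemolymph lipoprotein, had 82306 and 84408 RPM in DmAngel KO and 52643 and 40908 RPM in control, a log2 fold change of 0.15 (SE 0.56, edgeR adjusted p = 0.881). Adh, FASN1 and Lsd-1, for alcohol dehydrogenase, fatty acid synthase and a lipid droplet protein, differed by 0.42, 0.72 and -0.22 on edgeR's log2 scale. In RPM all 4 markers were higher in both DmAngel KO libraries than in either control, so the size and sign depended on the scaling. Lsd-1, for example, had 60.0 and 48.3 RPM in DmAngel KO and 40.8 and 37.2 in control. Of the 4 genes none passed edgeR's test, none had an unadjusted p under 0.05, and none was called by DESeq2. Per 1000 reads of apolpp in the same library, there were 242 and 146 reads of Lsp1beta in DmAngel KO and 2248 and 1546.5 in control. For Lsp1alpha the figures were 14.1 and 8.62 in DmAngel KO and 1451 and 984 in control. For Fbp1 they were 0.0858 and 0.0686 in DmAngel KO and 58.9 and 68.3 in control. The genes named were thus low in DmAngel KO relative to apolpp as well as to all nuclear reads.

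Among 15 genes for secreted or hemolymph proteins of the fat body, 13 were tested, with 1 call for a higher and 4 calls for a lower level in DmAngel KO. Of all genes tested, 4.18% were higher and 7.01% lower. The gene lists were chosen with earlier results of these data known. Without TMM factors these counts were 2 and 1, and with the library size from all reads 0 and 10. The median log2 fold change was -0.69, against 0.01 over all genes tested. Obp99b, an odorant-binding protein found in the hemolymph, had 19 and 11 reads in DmAngel KO and 14030 and 3701 in control. Its level of 33.5 and 21.2 RPM in DmAngel KO, against 10589 and 8098 RPM in control, gave a log2 fold change of -9.09 (SE 0.62, edgeR adjusted p = 6.67e-06). Of the others, Obp99a had 14.1 and 27.0 RPM in DmAngel KO and 42.3 and 41.6 in control (log2 fold change -1.70, edgeR adjusted p = 0.0393). Obp99a thus reached the filter of about 18.4 RPM in both libraries of a genotype only in control. Nothing is read from its adjusted p or from its place among the 4 lower calls. Mtp, which loads lipid onto lipoproteins, had 331.8 and 332.0 RPM in DmAngel KO and 768 and 519 in control (-1.64, adjusted p = 0.0128, edgeR). The chitinase-like growth factor Idgf6, named after its values were seen, was the other lower gene (-1.34, adjusted p = 0.0345, edgeR). ImpL2, a secreted binder of insulin-like peptides, was the higher one, at 102 and 98.4 RPM in DmAngel KO and 24.9 and 21.9 in control (1.39, adjusted p = 0.0426, edgeR), but its log2 fold change was -0.06 with the library size from all reads.

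With 1 library left out, some of these calls were lost while the direction stayed. Obp99b kept its call whichever library was left out. Mtp lost it without DmAngel KO replicate 1 (log2 fold change -1.70, edgeR adjusted p = 0.0993) or replicate 2 (-1.79, adjusted p = 0.102), and Obp99a without DmAngel KO replicate 1 (-1.37, adjusted p = 0.219). ImpL2 lost it whichever library was left out, with log2 fold changes of 1.20 to 1.42 and edgeR adjusted p of 0.0722 to 0.202.

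Of 18 fat body enzymes and lipid storage proteins, 15 were tested, 1 was higher and 1 lower, where 4.18% of all genes were higher and 7.01% lower. The median log2 fold change was 0.24. Without TMM factors 7 of these genes were higher, and with the library size from all reads 9 were lower. Gnmt, for glycine N-methyltransferase, had 3.53 and 7.72 RPM in DmAngel KO and 18.9 and 43.8 in control (log2 fold change -3.00, edgeR adjusted p = 0.0108). Gnmt passed the filter on low counts through the control libraries alone, so nothing is read from its adjusted p. Pepck1, a gluconeogenic enzyme, had 164 and 131 RPM in DmAngel KO and 40.8 and 21.9 in control (1.46, adjusted p = 0.0357, edgeR). Without control replicate 2 both calls were lost, with log2 fold changes of -2.51 for Gnmt (edgeR adjusted p = 0.151) and 1.05 for Pepck1 (adjusted p = 0.0958). Pepck1 was also not called without DmAngel KO replicate 1 (1.24, adjusted p = 0.163, edgeR) or replicate 2 (1.47, adjusted p = 0.106).

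The prophenoloxidases PPO1 and PPO2, relatives of the hexamerins made in crystal cells, had log2 fold changes of -0.55 and -0.23, and neither passed edgeR's test or an unadjusted p of 0.05 or was called by DESeq2. PPO3 and the trafficking genes g and car, tied to hexamerin uptake, were below the filter, with 2 to 33 reads in each library. Of 25 genes for ecdysone and juvenile hormone signalling, stage and fat body identity, 9 were tested and 0 were called by edgeR or DESeq2, with 1 lower at an unadjusted p under 0.05 (ImpE1, log2 fold change -1.50). The receptor gene EcR had 31.8 and 21.2 RPM in DmAngel KO and 10.6 and 8.75 in control (log2 fold change 0.71, edgeR adjusted p = 0.342). EcR thus passed the filter of about 18.4 RPM through the DmAngel KO libraries alone. ImpE1 had 5.29 and 23.2 RPM in DmAngel KO and 18.9 and 35.0 in control. It reached the filter in both libraries of a genotype only in control. Nothing is read from the p-values of EcR and ImpE1. Most genes of this list had counts too low for the filter, so a difference in them was not detectable at this depth.

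Markers of some other larval tissues were low in the same libraries. The 6 salivary glue genes, which are switched on late in larval life, summed to 3.53 and 5.79 RPM in DmAngel KO and 178 and 359 RPM in control, and 4 and 5 of them were at 0 in the DmAngel KO libraries. All 3 that were tested were lower, where 7.01% of all genes tested were. They passed the filter on low counts through the control libraries alone, so nothing is read from that count or from their adjusted p. Sgs3 had 0 and 0 reads in DmAngel KO and 74 and 65 in control, at least 35.8-fold lower against 3 reads over the DmAngel KO group (edgeR adjusted p = 0.000298). Sgs7 had 0 and 0 reads in DmAngel KO and 69 and 54 in control, at least 30.8-fold lower on the same basis (adjusted p = 0.000298, edgeR). Sgs5 had 1 and 0 reads in DmAngel KO and 54 and 26 in control. The glue genes are made outside the fat body, and the part of larval stage in the fall of the 6 genes was not tested.

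Of 10 midgut genes, 4 were lower and 0 higher, where 7.01% of all genes tested were lower and 4.18% higher. Their median log2 fold change was -0.88. The largest falls were in Amy-p (-3.47, edgeR adjusted p = 0.000379) and Mal-A4 (-3.17, adjusted p = 0.00054, edgeR). Amy-p had 24.7 and 11.6 RPM in DmAngel KO and 138 and 114 in control. It thus reached the filter of about 18.4 RPM in both libraries of a genotype only in control. Nothing is read from the adjusted p of Amy-p or from its place among the 4 lower genes. Reads of Amy-p may be shared with its near-identical copy Amy-d. Of 5 cuticle genes tested, Lcp1 (-3.41) and Lcp2 (-3.11) were lower, beside the same 7.01% of all genes. No gene passed among 10 muscle, 5 hemocyte and 3 neuronal genes tested by edgeR, with DESeq2 calling 0 of them too. At an unadjusted p under 0.05 there was 1 higher muscle gene, 0 hemocyte genes and 1 lower neuronal gene. The summed muscle markers were 44418 and 74831 RPM in DmAngel KO and 30767 and 68471 RPM in control, and the hemocyte markers 15379 and 16841 RPM in DmAngel KO and 11348 and 19477 in control, so the genotypes overlapped in both sums. Most of the muscle sum was bt, and the other 9 muscle genes, a sum chosen after the values were seen, came to 11853 and 6364 RPM in DmAngel KO and 3820 and 4820 RPM in control, with no overlap.

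**Figure D4:**
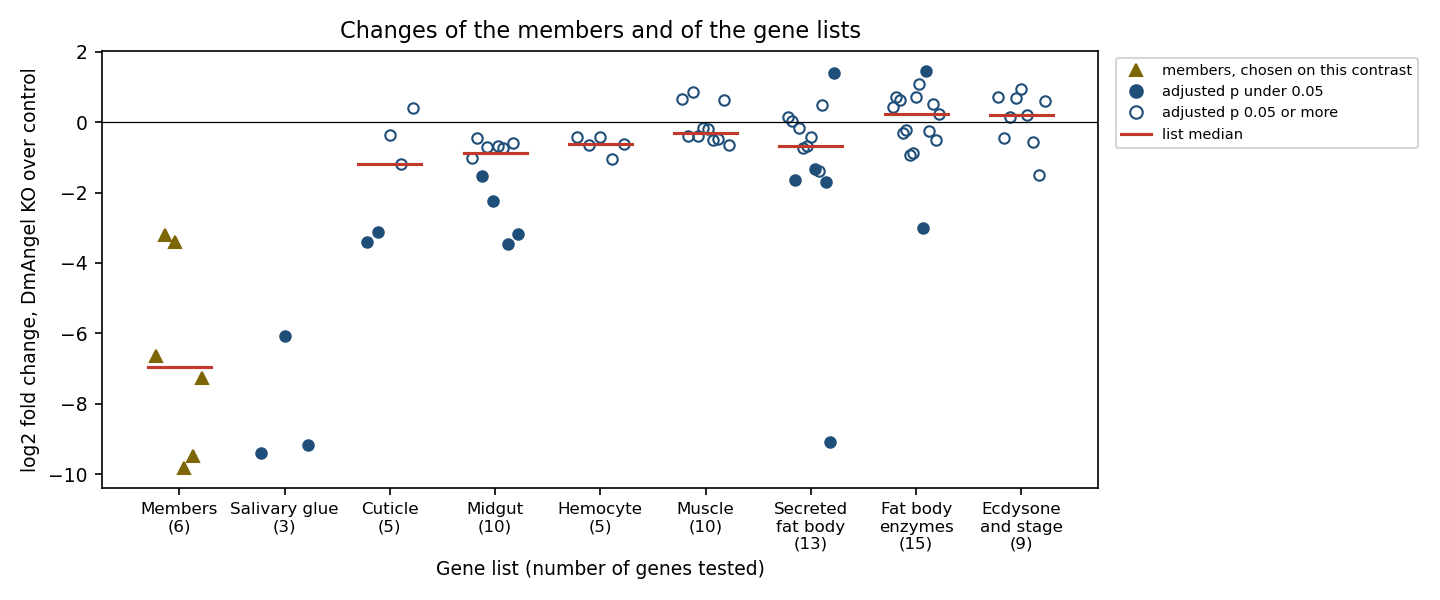
Log2 fold change, DmAngel KO over control, of the 6 genes (triangles) and of the tested genes of 8 lists, filled where the adjusted p from edgeR was under 0.05, with red lines at list medians. The 6 genes range from -9.82 to -3.20; Sgs3 and Sgs7 had no DmAngel KO read, so their plotted values depend on the small count edgeR adds, and no median is drawn for the glue genes.

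The genes whose pattern over the 4 libraries was most like the mean of the 6 were sought among 400 others of at least the abundance of the least abundant member, as the distance between centred log2(RPM + 1) values. The nearest was Cpr49Ac, a cuticle protein gene, at a distance of 1.72. It had 18 and 9 reads in DmAngel KO and 593 and 239 in control. Next came CG6283 at 2.17, the lysosomal alpha-mannosidase genes LManVI at 2.24 and LManV at 2.56, and Obp99b at 2.51. The log2 fold changes of these 5 genes were between -9.09 and -4.25. For comparison, Lsp1alpha itself lay 0.291 and Fbp2 0.652 from the mean, whereas the other members lay 2.81 to 3.59 away. Fbp1 and Lsp2 fell further than the mean, and Lsp1beta and Lsp1gamma less far.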

How the data were processed

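Read pairs were merged (BBMerge) and trimmed (BBDuk) by the authors, who then removed reads aligning to non-coding RNA and aligned the rest with Bowtie2, sense strand only, to Ensembl transcripts with edited mitochondrial entries. They deposited raw read counts per transcript entry, without normalization, for 4 libraries of 34917 entries. The submitters' notes also name bedtools and BDGP6. Of 34882 nuclear (FBtr) entries, 34713 were found in the BDGP6.54 annotation and summed per gene.

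Genotypes were compared with edgeR 4.0.16 in R 4.3.3 (glmQLFit, glmQLFTest, filterByExpr, TMM factors on nuclear reads, Benjamini-Hochberg adjustment, threshold 0.05). Standard errors were derived from the F statistic. The small-count caveats and the exact intervals of pooled ratios cover counting error only. DESeq2 1.42.0, other scalings and filters, single entries, a replicate block and leaving out each library were the alternatives. In simulated counts of this comparison over 2674 genes, with 200 changed by 3 on the log2 scale, edgeR recovered 197 with 5 false calls and DESeq2 178 with 1.

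The members and lists were chosen with earlier results of these data known. Named were all members, up to 4 called genes per list with the largest change, the 5 genes nearest the members' mean pattern, and angel. Exceptions are marked. The public description speaks of technical replicates and the study's methods of independent samples; p-values measure only the spread between these libraries, which may be technical. Replicates differed by more than sampling noise (chi-square 43582 with 3316 degrees of freedom in DmAngel KO, 97300 with 3084 in control). Nuclear rRNA held 2.05% to 4.08% of nuclear reads.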

Additional observations from a re-analysis of the deposited data

How the results depend on the processing

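All 6 members were lower in DmAngel KO under every alternative, and the count called was 6 except without either DmAngel KO replicate, when it was 4 (range 4 to 6). Without TMM factors, 735 genes were higher and 116 lower, the secreted list had 2 higher and 1 lower and the enzyme list 7 higher, and the members' median log2 fold change was -6.28. With the library size from all entries, mtDNA included, 30 genes were higher and 2658 lower, the secreted list had 0 higher and 10 lower, the enzyme list 0 higher and 9 lower, the members' median was -8.38, and ImpL2 reversed to -0.061. DESeq2 called 70 genes higher and 174 lower, with 0 higher in the secreted and 0 in the enzyme list, and the unfiltered fit also gave 0 higher in each list. With at least 50 reads in 2 libraries, where fewer genes were tested, 73 were higher and 104 lower, and the enzyme list had 2 higher and 0 lower. Entries tested singly gave 135 genes lower and, in the secreted list, 0 higher and 2 lower. With the replicate block, 250 genes were higher and 372 lower, all 335 calls of the fit without it were shared, and the enzyme list had 2 higher. The labels do not tie the replicate numbers to the study's 2 experiments, so the numbers were not taken as pairs: the differences between replicates 1 and 2 had a correlation of 0.18 between genotypes across 2994 genes, which are not independent replicates, and the block changed no member's call. Leaving out 1 library gave 92 to 175 genes higher, 118 to 433 lower, member medians of -7.62 to -6.70, 0 higher and 1 to 7 lower in the secreted list, and 0 to 1 higher and 1 to 2 lower in the enzyme list; the lone library of a genotype was then assumed to vary like the pair. Per length, the LSP1 shares were 3.09% for Lsp1alpha, 51.7% for Lsp1beta and 45.2% for Lsp1gamma in DmAngel KO, and 24.7%, 37.8% and 37.5% in control. Except where a setting tested fewer genes or libraries, the cause of these shifts was not tested. Beyond the losses given with the list genes above, Mtp and Obp99a were not called without TMM factors (log2 fold changes -0.96 and -1.03), Obp99a and ImpL2 not by single entries, Obp99a, ImpL2 and Pepck1 not by DESeq2, ImpL2 and Pepck1 not without the filter, and Pepck1 not with the library size from all entries (0.014). The 3 to 7 DmAngel KO reads of Lsp2, Fbp1 and Fbp2 limit how finely their falls can be told apart.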

Other observations

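The genes next to the members on the chromosome were chosen after the values were seen, and most were below the filter on low counts. Of 12 flanking protein-coding genes, 4 were tested and 1 was called, where 7.01% of all genes tested were lower and 4.18% higher. Nothing is read from so small a count. CG8100, 8168 bases from Fbp1, had 13 and 13 reads in DmAngel KO and 323 and 66 in control, a log2 fold change of -3.71 (edgeR adjusted p = 0.000244). Sox21a, on the other side of Fbp1, had -0.29 (edgeR adjusted p = 0.759), Cpr11A beside Lsp1alpha 0.40 (adjusted p = 0.482) and GluRIIC beside Lsp1beta 0.24 (adjusted p = 0.731). CG42847, which overlaps Fbp2, had 1 read in all.

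The yolk proteins, made by the fat body and ovary of adult females, had 14 and 10 reads in all in DmAngel KO and 364 and 72 in control. Yp2 had a log2 fold change of -4.72 (edgeR adjusted p = 0.00127) and Yp3 one of -3.76 (adjusted p = 0.00018, edgeR). Yp2 passed the filter on low counts through the control libraries alone. Yp3 had 21.2 and 17.4 RPM in DmAngel KO and 194 and 131 in control. It thus reached the filter of about 18.4 RPM in both libraries of a genotype only in control. Nothing is read from the adjusted p of either gene.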
